A study of Mus musculus with 16 samples.

Results

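Galc, Tnfaip2 and Dus4l are 3 genes of mouse chromosome 12, of 622 genes of that chromosome and 18193 genes in all that have a probe set with a single symbol on the arrays. They were chosen by the difference between untreated SAMP8 and Control mice on the brightest probe set of each gene, so that difference is given here as a description and is not tested. In the order of the p of that difference Dus4l was the last chromosome 12 gene inside the threshold, with a difference of 1.08 log2 (SE 0.21), and 4930447C04Rik the first outside it, with 2.64 (SE 0.57). The 3 genes have 10 probe sets. A probe set is a group of short probes read as a single log2 value, and 5 of the 10 read over 4 log2 on at least 4 arrays and were tested.

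The arrays hold hippocampal RNA of 16 male mice aged 12 months, 1 mouse per array and 4 per group. Control mice are a 50% backcross of SAMP8 with CD-1 mice, untreated, and show no memory deficit. SAMP8, the senescence-accelerated line, has a deficit at that age and was either left untreated or given an intravenous oligonucleotide, Random antisense or AβPP antisense, the latter directed at the amyloid beta precursor protein. Every untreated SAMP8 mouse is of the line with the deficit and every Control mouse of the line without it, so line and memory deficit cannot be told apart. No group of treated Control mice is in the design. Random antisense 1 carries a treatment label of none, against its title, and was kept with Random antisense.

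Galc encodes galactosylceramidase, the lysosomal enzyme that removes galactose from the myelin lipids galactosylceramide and psychosine. Its loss causes Krabbe disease in people and the twitcher phenotype in mice, and in brain its main substrates lie in oligodendrocytes and their myelin. Tnfaip2, also called M-Sec, is related to the exocyst subunit Exoc3, is induced by tumour necrosis factor through NF-kB and promotes thin membrane bridges between cells; it is known from endothelial and myeloid cells. Dus4l belongs to the dihydrouridine synthases, which reduce uridines in the loops of transfer RNA.

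The RefSeq promoter windows of the 3 genes, 250 bases before and 50 bases after the gene's start, are shown to place the genes and to show what their start regions share. The letters are those of the reference strain on assembly GRCm38.p6 and not of the mice studied, and the probes themselves are not shown. Each line runs 5′ to 3′ on the strand of the gene, and capitals mark every match to a motif searched on both strands, overlapping matches included. Galc lies at chr12:98259410-98259709 on the minus strand, Tnfaip2 at chr12:111442411-111442710 on the plus strand and Dus4l at chr12:31654777-31655076 on the minus strand.
Galc: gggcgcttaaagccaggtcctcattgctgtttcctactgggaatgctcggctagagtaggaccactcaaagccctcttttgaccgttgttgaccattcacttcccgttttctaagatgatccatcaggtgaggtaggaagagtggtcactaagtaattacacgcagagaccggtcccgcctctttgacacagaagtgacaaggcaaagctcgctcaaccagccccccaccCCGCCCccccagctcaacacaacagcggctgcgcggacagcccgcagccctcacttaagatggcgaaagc
Tnfaip2: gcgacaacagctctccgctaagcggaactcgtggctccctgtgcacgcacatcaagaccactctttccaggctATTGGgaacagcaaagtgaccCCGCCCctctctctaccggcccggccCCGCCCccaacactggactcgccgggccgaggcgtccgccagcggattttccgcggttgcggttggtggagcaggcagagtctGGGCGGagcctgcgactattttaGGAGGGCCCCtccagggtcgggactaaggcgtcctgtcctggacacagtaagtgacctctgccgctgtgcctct
Dus4l: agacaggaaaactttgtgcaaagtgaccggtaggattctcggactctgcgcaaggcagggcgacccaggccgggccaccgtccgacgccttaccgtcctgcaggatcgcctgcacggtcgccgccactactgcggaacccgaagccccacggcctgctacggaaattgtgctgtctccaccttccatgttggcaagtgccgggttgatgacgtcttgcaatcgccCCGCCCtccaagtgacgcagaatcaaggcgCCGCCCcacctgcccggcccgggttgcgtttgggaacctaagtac
The motifs searched were the TATA box (TATAAA), the CCAAT box (CCAAT), the GC box (GGGCGG), the E-box (CACGTG), the cyclic AMP response element (TGACGTCA) and the kappaB motif. A GC box was found in all 3 windows, once in Galc, 3 times in Tnfaip2 and in 2 places in Dus4l, and 35.7% of 32851 promoter windows hold at least 1. The Tnfaip2 window also has a CCAAT box, held by 37.4% of windows, and a kappaB match 24 bases before the start, held by 8.46%. No TATA box, E-box or cyclic AMP response element was matched, and these are held by 13.6%, 7.15% and 1.79% of windows. Guanine and cytosine make up 55.7% of the Galc window, 64.3% of that of Tnfaip2 and 63.0% of that of Dus4l, against a median of 52.7%. The Dus4l window shares 142 bases with that of Cog5, a Golgi complex subunit gene read from the opposite strand.

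Galc read far higher in every SAMP8 group than in Control on its brightest probe set, 1452907_at. The Control arrays 1 to 4 read 2.33, 6.59, 4.46 and 2.28 log2. Untreated SAMP8 read 8.59, 8.71, 8.52 and 8.46. Random antisense read 8.69, 8.51, 8.41 and 8.42, and AβPP antisense 8.27, 8.81, 8.39 and 8.18. All 12 SAMP8 arrays thus lay within 0.63 log2 of each other and above every Control array, while the Control arrays spanned 4.31. The means were 3.92 ± 2.05 (SD, n = 4) in Control, 8.57 ± 0.11 in SAMP8, 8.51 ± 0.13 after Random antisense and 8.42 ± 0.28 after AβPP antisense. The 3 SAMP8 groups overlap in every pair. Untreated SAMP8 exceeded Control by 4.65 (SE 0.67). The treated groups exceeded it by 4.59 after Random antisense and 4.50 after AβPP antisense. These 3 differences share the Control arrays. Since 2 Control arrays lay under 4 log2, the sizes are uncertain.

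A second Galc probe set, 1420547_at, showed the opposite pattern. The Control arrays read 5.07, 5.67, 5.28 and 4.83. Untreated SAMP8 read 3.14, 3.37, 3.32 and 3.32, Random antisense 3.32, 3.26, 3.08 and 3.71, and AβPP antisense 2.88, 2.88, 3.55 and 3.04. No SAMP8 array reached 4 log2 and every Control array exceeded it, so this probe set passed the filter through the Control group alone. Untreated SAMP8 lay 1.93 below Control (SE 0.19), Random antisense 1.87 below and AβPP antisense 2.13 below. The third probe set, 1449900_at, was designed from the same sequence record as the second and read from 2.61 to 2.80 on all 16 arrays, a range of values with no separation of the groups. The direction of the line difference for Galc therefore depends on the probe set.

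Markers of oligodendrocytes, the cells in which Galc substrates are made, were read beside it. The 10 measured of 11 markers were over 4 log2 on every array, and their mean was 10.96 to 11.73 on the Control arrays, 11.46 to 11.62 in untreated SAMP8, 11.24 to 11.45 after Random antisense and 10.79 to 11.63 after AβPP antisense. The 4 groups overlap in this mean, and the lowest Control array was Control 4. Control 4 was also the lowest Control array on both tested Galc probe sets. Without it the line differences of the probe sets were 4.11 and -2.06.

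Tnfaip2 was carried by a single probe set above the filter, 1457918_at, which also separated the lines. Control arrays read 3.99, 4.61, 4.90 and 3.96. Untreated SAMP8 read 5.88, 6.34, 6.09 and 5.74. Random antisense read 5.67, 5.88, 5.89 and 6.10, and AβPP antisense 6.22, 5.88, 6.63 and 6.80. The lowest of 12 SAMP8 arrays, 5.67, lay above the highest Control array, and the 3 SAMP8 groups overlapped. The group means were 4.36 ± 0.47, 6.01 ± 0.26, 5.89 ± 0.18 and 6.38 ± 0.42 (SD, n = 4) in the same order. Differences from Control were 1.65 (SE 0.24) for untreated SAMP8, 1.52 for Random antisense and 2.02 for AβPP antisense.

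The other 2 probe sets of Tnfaip2 lay near the floor on most arrays and cannot bear on the line difference. 1416273_at, designed from a RefSeq transcript, read from 2.17 to 2.21 on all 12 SAMP8 arrays, and the Control arrays read 2.17, 2.21, 2.17 and 2.56. 1438855_x_at, whose name marks probes that may bind other transcripts, read 2.97, 3.03, 2.91 and 7.92 in Control and 2.91, 3.03, 2.94 and 4.73 after AβPP antisense. Untreated SAMP8 read from 2.84 to 3.31 on it and Random antisense from 2.84 to 3.01. Control 4 and AβPP antisense 4 were thus the arrays on which Tnfaip2 stood out on this probe set.

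Both arrays also had the highest means of leukocyte genes, AβPP antisense 4 by a small margin. The 6 measured of 8 leukocyte markers had a mean of 7.56 on Control 4 and 5.25 on AβPP antisense 4, the 2 highest of 16 arrays. The other Control arrays had 4.63, 4.35 and 4.93, untreated SAMP8 4.66 to 4.78, Random antisense 4.43 to 4.78 and the other AβPP antisense arrays 4.94 to 5.05. Ptprc, the CD45 antigen of all leukocytes, read 12.50 on Control 4 and had a median of 5.63, and Cd52 read 11.29 with a median of 4.51. On AβPP antisense 4 Ptprc read 6.83 and Cd52 5.95, while Coro1a read 10.85, below its median of 11.18. The lymphocyte markers Cd3e, Cd2 and Cd79a stayed under 4 log2 on every array. S100a8, a neutrophil gene kept in a separate list of blood markers, read 12.87 on Control 4 and 8.75 on AβPP antisense 4, with a median of 3.86. Microglia markers, 7 of 7 over 4 log2 on all arrays, had means of 8.71 to 9.66 in Control, with Control 4 the highest. After AβPP antisense the means ran from 8.58 to 9.57, with AβPP antisense 4 the lowest. The genes of the list were divided on AβPP antisense 4. P2ry12 read 5.35 (median 9.10) and Cx3cr1 7.45 (median 9.06), and Tmem119 was also below its median. Csf1r, C1qa, C1qb and Aif1 (9.15, median 8.25) lay above theirs. Endothelial markers had means of 4.92 to 5.88 in Control, again with Control 4 the highest, 4.77 to 5.21 in untreated SAMP8, 4.87 to 5.25 after Random antisense and 5.01 to 5.78 after AβPP antisense. Of the 7, Cdh5 and Kdr stayed under 4 log2 on every array. Pecam1 passed 4 log2 on Control 4 alone, at 7.57 with a median of 3.27. On Control 4 Cldn5 and Flt1 lay above their medians and Slco1a4 and Tek below theirs. In bulk tissue, more cells of a type and more RNA per cell cannot be told apart, and the part of these cells in the Tnfaip2 values was not tested. On 1457918_at, the probe set that separated the lines, Control 4 was the lowest array of all, and without it the difference was 1.51.

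**Figure D1:**
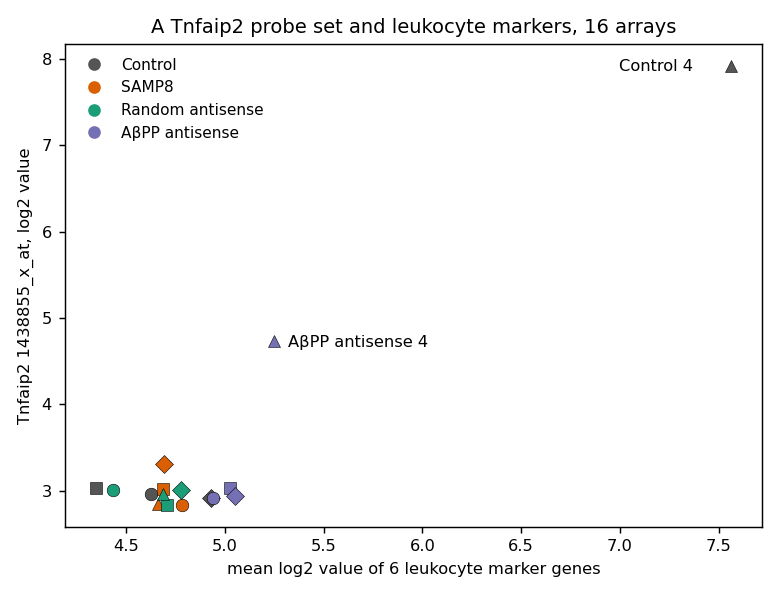
Tnfaip2 probe set 1438855_x_at (vertical axis, log2 value) against the mean log2 value of 6 leukocyte marker genes (horizontal axis) on 16 arrays, 1 point per mouse, coloured by group and shaped by mouse number. On the vertical axis Control 4 (7.92) and AβPP antisense 4 (4.73) lie apart from the other 14 arrays, which read from 2.84 to 3.31. On the horizontal axis Control 4 (7.56) lies apart, while AβPP antisense 4 (5.25) lies close to AβPP antisense 3 (5.05).

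Dus4l read higher in SAMP8 on 1441006_at. Control arrays read 5.32, 4.85, 5.73 and 4.65. Untreated SAMP8 read 6.27, 6.37, 6.34 and 5.88, Random antisense 6.20, 6.35, 6.11 and 6.53, and AβPP antisense 6.72, 6.56, 6.83 and 6.39. The groups are ordered Control, SAMP8, Random antisense and AβPP antisense by their means of 5.14 ± 0.48, 6.22 ± 0.23, 6.30 ± 0.18 and 6.63 ± 0.19 (SD, n = 4). Control lay apart from all the others. Untreated SAMP8 and Random antisense overlapped, as did Random antisense and AβPP antisense. The 4 AβPP antisense arrays lay above the 4 untreated SAMP8 arrays by a narrow margin, 6.39 against 6.37. The share of all probe sets that separate AβPP antisense from untreated SAMP8 was not counted. Differences from Control were 1.08 (SE 0.21), 1.16 and 1.49 in the same order.

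The second tested Dus4l probe set, 1453252_at, did not separate the lines. It read 5.71, 6.24, 5.79 and 5.71 in Control and 5.87, 5.93, 5.93 and 5.48 in untreated SAMP8, a difference of -0.05 (SE 0.18). Random antisense read 5.57, 5.82, 5.87 and 5.61, and AβPP antisense 5.89, 5.19, 5.92 and 5.76, so all 4 groups overlap. The remaining 2 probe sets, 1449777_at and 1420209_at, share a sequence record and lay between 2.09 and 2.21 and between 1.71 and 1.79 on the 16 arrays. For Galc and Dus4l, then, the tested probe sets gave unlike line differences: opposite in sign for Galc and present on 1 of the 2 tested probe sets for Dus4l. For Tnfaip2 a single probe set was tested, and the others, under 4 log2 on every array except 2 for 1438855_x_at, could not show a line difference.

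**Figure D2:**
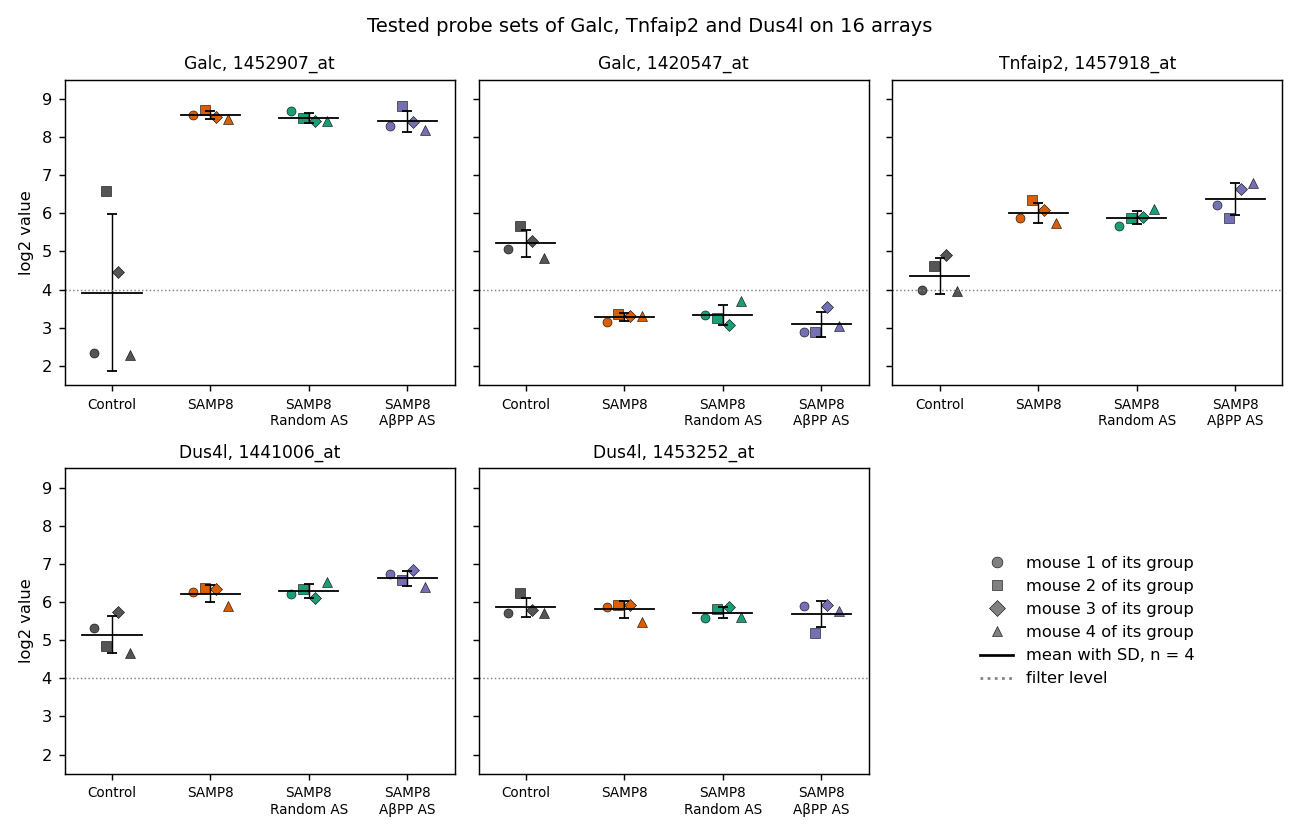
Log2 values (vertical axis) of the 5 tested probe sets of Galc, Tnfaip2 and Dus4l in 4 groups, 1 point per mouse, with the mean and SD of 4 arrays and a dotted line at the filter level of 4. On 1452907_at, 1457918_at and 1441006_at all 12 SAMP8 arrays lie above the 4 Control arrays, on 1420547_at they lie below, and on 1453252_at the groups overlap.

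**Figure D3:**
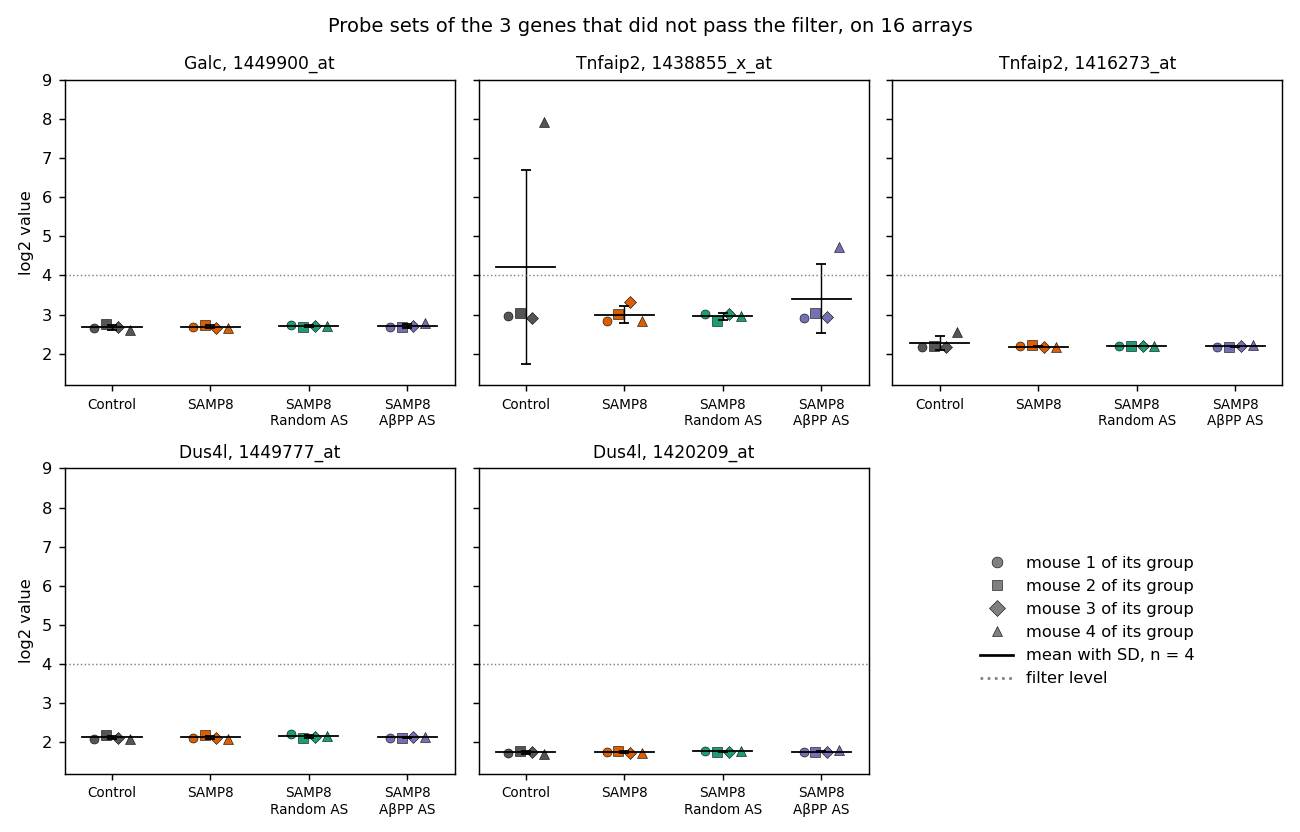
Log2 values (vertical axis) of the 5 probe sets that did not pass the filter, in the same 4 groups, with mean and SD. All lie under 4 log2 on every array except 1438855_x_at, which read 7.92 on Control 4 and 4.73 on AβPP antisense 4.

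The comparison that did not enter the choice of the genes is AβPP antisense against Random antisense, both in SAMP8 mice. It asks what the sequence directed at AβPP did to these genes, and 0 of the 5 tested probe sets passed a limma adjusted p of 0.05, where 0.0837% of 23905 probe sets did. At an unadjusted p under 0.05 the count was 0 in limma, where 2935 of 23905 reached it, and 0 by the exact permutation test. With 5 probe sets, 0 is near both of these backgrounds. Tnfaip2 on 1457918_at had a difference of 0.50 (SE 0.24, 95% interval -0.01 to 1.00, limma adjusted p = 0.416, exact two-sided permutation p = 0.114), with 3 of 4 AβPP antisense arrays above all Random antisense arrays. Dus4l on 1441006_at had 0.33 (SE 0.21, interval -0.11 to 0.77, limma adjusted p = 0.546, exact permutation p = 0.0571), again with 3 of 4 arrays above. Its other probe set, 1453252_at, had -0.03 (SE 0.18, interval -0.41 to 0.35, limma adjusted p = 0.962, exact permutation p = 0.886).

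For Galc the differences were -0.09 on 1452907_at (SE 0.67, interval -1.52 to 1.34, limma adjusted p = 0.970, exact permutation p = 0.543) and -0.25 on 1420547_at (SE 0.19, interval -0.67 to 0.16, limma adjusted p = 0.630, exact permutation p = 0.314). All 8 arrays compared read under 4 log2 on 1420547_at, so its value says nothing about a change between the oligonucleotides, and 4 probe sets remain on which a change could be seen. The wide interval of the former comes from the spread of the Control arrays, which the 4 groups share in the fit: with the 8 treated arrays alone it ran from -0.46 to 0.27. With 4 against 4 arrays the smallest exact permutation p is 0.0286. In that fit of 8 arrays the interval of Tnfaip2 was 0.01 to 0.99 and its adjusted p 0.584. Against untreated SAMP8, whose arrays helped to choose the genes, Random antisense differed by -0.06 and 0.06 on the Galc probe sets 1452907_at and 1420547_at, -0.12 for Tnfaip2 and 0.08 and -0.09 on the Dus4l probe sets 1441006_at and 1453252_at. AβPP antisense differed from it by -0.15, -0.20, 0.37, 0.41 and -0.12 in the same order. The SE of these values ran from 0.18 to 0.67. The value of 0.41 for Dus4l on 1441006_at stands beside a line difference of 1.08. The treated groups also differed in markers of other cells and tissues. The mean of the 6 leukocyte markers was 4.94 to 5.25 after AβPP antisense and 4.43 to 4.78 after Random antisense. The mean of 6 choroid plexus markers was 4.91 to 7.43 after AβPP antisense and 7.86 to 9.12 after Random antisense, and that of the 3 measured of 4 blood markers was 4.37 to 6.86 against 3.39 to 3.62, without overlap in any of the 3 lists. Of the leukocyte markers Cd2, Cd3e and Cd79a were under 4 log2 on all 16 arrays. Of the blood markers Hba-a1 stayed under 4 log2 on every array. S100a8 in that list is a neutrophil gene, so the list is not separate from leukocytes. Their part in the values of Galc, Tnfaip2 and Dus4l was not tested.

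**Figure D4:**
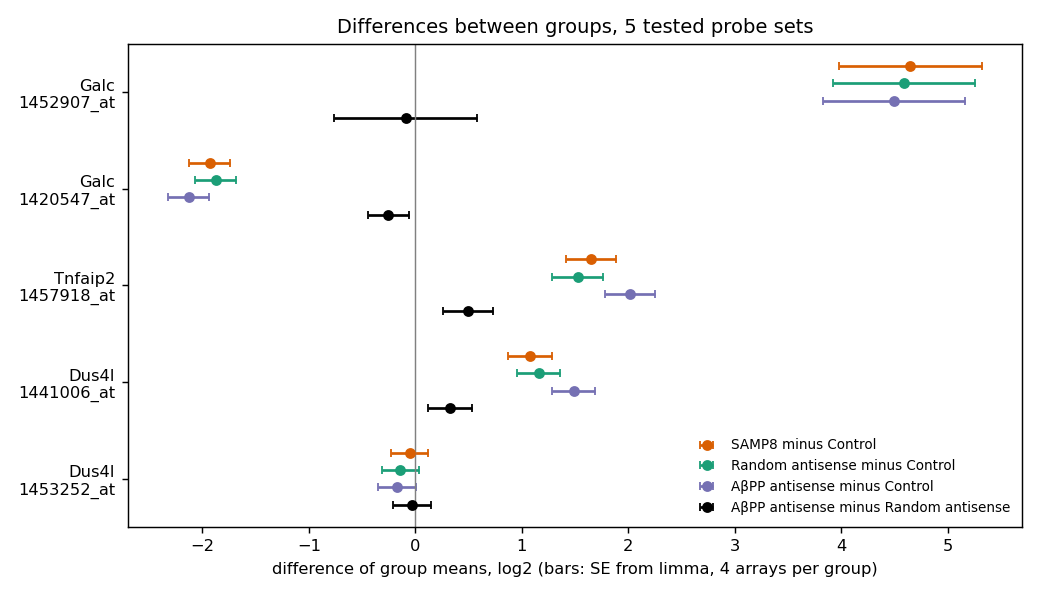
Differences of group means in log2 (horizontal axis, bars are SE from limma) for the 5 tested probe sets of the 3 genes, in 4 comparisons marked by colour. The 3 comparisons with Control share the 4 Control arrays and lie at 4.50 to 4.65 for Galc 1452907_at, at -2.13 to -1.87 for 1420547_at, at 1.52 to 2.02 for Tnfaip2 and at 1.08 to 1.49 for Dus4l 1441006_at, while AβPP antisense minus Random antisense lies between -0.25 and 0.50.

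Over chromosome 12 the 3 genes lie far apart, at ranks 143 (Dus4l), 488 (Galc) and 619 (Tnfaip2) in the order of 679 protein-coding genes of the RefSeq table. Of 797 tested probe sets of the chromosome, 6 were called between untreated SAMP8 and Control, 5 higher and 1 lower, against 0.36% of all 23905. Of these, 4 belong to the 3 genes, which were chosen for it. Outside them 2 of 792 were called. Timm9, a chaperone for proteins entering mitochondria, rose by 4.11 log2 on 1428010_at (SE 0.31, limma adjusted p = 4.73e-06). It read 2.82, 3.93, 2.81 and 2.78 in Control and 7.33, 7.10, 7.21 and 7.16 in untreated SAMP8. The Control values lie under 4 log2, so the size is uncertain. Its second probe set had -0.06 (limma adjusted p = 0.999), so Timm9, like Dus4l, differed on 1 probe set of 2. Klc1, a light chain of the kinesin motor, rose by 0.65 on 1428881_at (SE 0.12, limma adjusted p = 0.0298), from 6.73 ± 0.24 to 7.38 ± 0.15 (SD, n = 4), with 2 others at 0.31 and 0.13 (limma adjusted p = 0.999 for both). Timm9 kept its call in all 16 fits that each left out 1 array and Klc1 in 6, with an adjusted p of up to 0.152 in the others. In the comparison of the oligonucleotides 1 of the 797 probe sets was called, of Plekhh1 (-1.70, limma adjusted p = 0.0211). That is near the 0.0837% called of all 23905.

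Among the closest neighbours of the 3 genes, 1 of 98 tested probe sets was called, a count near the 0.36% of all probe sets. At an unadjusted limma p under 0.05 there were 10 of the 98 (10.2%), a higher share than the 1047 of 23905 over the whole table. The 98 probe sets belong to 45 genes, and the reason for this share was not tested. Of the 10 protein-coding genes on either side, 14 of 20 had a tested probe set at Galc, 16 of 20 at Tnfaip2 and 15 of 20 at Dus4l, with 34, 28 and 36 probe sets. The 1 called in SAMP8 against Control was that of Klc1, higher in SAMP8, which stands 8 genes from Tnfaip2. Klc1 kept this call in 6 of the 16 fits that each left out 1 array. The median differences were 0.14 for the neighbours of Galc, 0.09 for those of Tnfaip2 and -0.11 for those of Dus4l, against 0.04 over all probe sets tested. Of the genes directly beside them, Flrt2, a cell adhesion gene next to Galc, had 0.28, 0.24 and 0.14 on its 3 probe sets. Gm266, next to Tnfaip2, had 0.42. Next to Dus4l, Bcap29 had -0.01, and Cog5, whose promoter window overlaps that of Dus4l, had 0.02 (all with limma adjusted p = 0.999). The genes on the other side of Galc and of Tnfaip2, Gpr65 and Exoc3l4, had no tested probe set.

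**Figure D5:**
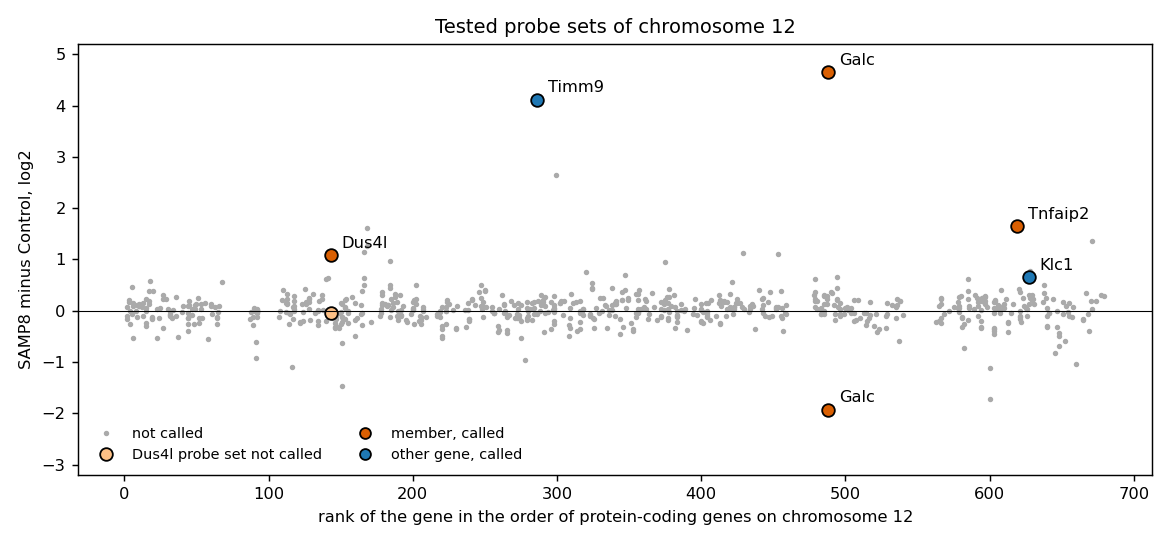
Untreated SAMP8 minus Control (vertical axis, log2) for tested probe sets of chromosome 12, against the rank of each gene in the order of protein-coding genes (horizontal axis). Grey points were not called; the called probe sets are those of Dus4l (1.08), Timm9 (4.11), Galc (4.65 and -1.93), Tnfaip2 (1.65) and Klc1 (0.65), and the other Dus4l probe set lies at -0.05.

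The genes that work with each of the 3 were read from 5 lists, and 0 of their 135 probe sets were called in either comparison in limma, against 0.36% and 0.0837% of all probe sets. At an unadjusted p under 0.05 there were 5 in SAMP8 against Control and 26 in AβPP antisense against Random antisense, where 1047 and 2935 of 23905 reached it over the whole table. Enzymes that make and degrade galactolipids and other sphingolipids, with 18 of 20 tested, had a median of 0.04 by the brightest probe set and 11 positive. The largest differences were those of Gm2a, the GM2 activator (-0.37), and Gal3st1, which adds sulfate to galactosylceramide (0.33). Ugt8a, which makes galactosylceramide, had 0.29, and Arsa, which removes sulfate from the sulfated form of that lipid, 0.05. Psap, the precursor of the saposin that assists Galc, had 0.04. The limma adjusted p was 0.999 for each of these list genes. Myelin genes, with 10 of 11 tested, had a median of 0.03 and 7 positive, led by Opalin (0.66) and Mag (0.40). Without Control 4 their median was -0.14. They are the same genes as the oligodendrocyte markers.

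For Tnfaip2, NF-kB induced genes had 8 of 17 tested, a median of -0.20 and 1 positive. Nfkbie, an NF-kB inhibitor, had -0.82 and Zfp36, which destabilises cytokine messages, -0.61, both opposite to Tnfaip2 (limma adjusted p = 0.999). Without Control 4, the array high for leukocyte genes, the median of the list was -0.0021. Exocyst genes had 11 of 14 tested, a median of 0.02 and 8 positive, led by Exoc6b (0.25) and Exoc4 (0.23). For Dus4l, tRNA modification genes had 29 of 32 tested, a median of 0.03 and 18 positive, and without Control 2 the median was -0.0062. The other dihydrouridine synthases Dus2, Dus1l and Dus3l had 0.18, 0.15 and 0.02 (limma adjusted p = 0.999). Adat2, a tRNA adenosine deaminase subunit, had 1.63 (SE 0.41, limma adjusted p = 0.212) and Alkbh8, a tRNA methyltransferase, 0.51. Over all 11465 genes the median was 0.04, with 60.2% positive. In AβPP antisense minus Random antisense the medians were 0.02 for sphingolipid enzymes, -0.16 for myelin, 0.35 for NF-kB induced, 0.01 for exocyst and 0.13 for tRNA modification genes, against 0.04 over all genes. Positive were 10 of 18, 3 of 10, 8 of 8, 6 of 11 and 21 of 29 genes in the same order, against 56.8% of all genes. Of the 17 probe sets of the 8 NF-kB induced genes, 0 were called in this comparison (smallest limma adjusted p = 0.0801). Tnfaip2 was not called either, and a link between them was not tested.

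By pattern over all 16 arrays, the genes most like Galc on 1452907_at, among brightest probe sets, were AU022252 (Pearson r = 0.95), 4930447C04Rik of chromosome 12 (0.93), Mocs2 (0.92), Fggy (0.90) and 6820431F20Rik (0.89). Those most like Tnfaip2 were Nudt19 (0.94), Dus4l (0.91), Efhd2 (0.90), Galc (0.89) and Hmgn3 (0.89). Those most like Dus4l on 1441006_at were Tnfaip2 (0.91), Nudt19 (0.91), Cep89 (0.88), Ppp1r16b (0.88) and Afdn (0.87). The arrays share the difference between the lines, which chose the 3 genes. Over the 12 SAMP8 arrays alone, the correlation was 0.59 between Tnfaip2 and Dus4l, -0.57 between Galc and Tnfaip2 and -0.17 between Galc and Dus4l. Over these arrays the 5 genes named for Galc ranged from -0.39 (Fggy) and -0.31 (Mocs2) to 0.57 (6820431F20Rik). Those named for Tnfaip2 ranged from -0.57 (Galc) to 0.87 (Hmgn3), with Nudt19 at 0.59. Those named for Dus4l ranged from 0.10 (Cep89) to 0.72 (Afdn), with Nudt19 at 0.31.

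The arrays as a whole were checked against the tissue label and against each other. Of 8 markers of hippocampal neurons, 6 to 8 read over 4 log2 on each array. Of the dentate gyrus markers, Tdo2 did so on 6 arrays, and Prox1 and C1ql2 on all 16. Neurod6, of pyramidal cells, did so on all 16. The mean of the 8 markers was lowest on AβPP antisense 2 (5.93) and AβPP antisense 4 (6.31), and 6.95 on Control 4. Set against the other 15 arrays, Control 4 had a median Pearson r of 0.92 and AβPP antisense 4 of 0.90, while the other 14 lay from 0.96 to 0.99. The labels name separate mice, and 4 per group limit the precision of every difference.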

How the data were processed

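Hippocampal RNA of individual mice was labelled, from 4 µg per array per the labels' protocols, and hybridised to Affymetrix arrays. The deposited values are log2, made by the authors with GCRMA per the submitters' processing notes; its version and a genome build are not given in the sources used here. GCRMA subtracts background, quantile normalizes and summarises probes, so dim probe sets sit at a floor near 2 log2 with little spread and differences that reach it are compressed.

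Groups came from sample titles. After removal of 64 control probe sets, 45037 remained, of which 34945 have 1 symbol in GEO's platform annotation, 932 several and 9160 none. A probe set was tested when over 4 log2 on at least 4 arrays (23905). A single limma fit held the 4 groups (residual degrees of freedom 12, prior 2.63), with Benjamini-Hochberg adjustment over all tested probe sets and a threshold of 0.05. Exact permutation tests used the 70 assignments of 8 arrays and are not adjusted for the 5 probe sets. RefSeq tables of GRCm38.p6 gave the order of genes on chromosome 12, their neighbours and the promoter windows with their coordinates. The fit was tested on simulated data. The genes named are every probe set of the 3 genes, every called chromosome 12 gene, the 2 largest differences of each list without a called member, and the 5 nearest by correlation; other list genes, adjacent neighbours and single marker genes were picked after their values were seen. Genes and lists were chosen with earlier results of these data known. Replicate numbers were not used to pair arrays. Protein sequences and probe sequences were not used here. Versions were R 4.3.3, limma 3.58.1, Python 3.11.15, pandas 2.3.3 and matplotlib 3.10.9.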

Additional observations from a re-analysis of the deposited data

Results flagged for a closer look

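An array was singled out where its gap to the nearest array of its group, over the range of the group, passed Dixon's 95% critical value. Of 40 groups of 4 arrays checked over the 10 probe sets, 5 passed, where chance gives about 1 in 20. For Tnfaip2 on 1438855_x_at, Control 4 read 7.92 against 2.91 to 3.03 on the other Control arrays, and AβPP antisense 4 read 4.73 against 2.91 to 3.03. For Tnfaip2 on 1416273_at, Control 4 read 2.56 against 2.17 to 2.21. For Dus4l on 1453252_at, Control 2 read 6.24 against 5.71 to 5.79, and SAMP8 4 read 5.48 against 5.87 to 5.93.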

How the results depend on the processing

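The line differences of the 4 probe sets that separate the lines kept their direction in every alternative in which they were tested. The genes were chosen by this difference, and where the arrays of the lines are fully separate, leaving out an array cannot reverse it. The kept direction is therefore a description and no support for the difference. Leaving out 1 array in turn gave 4.11 to 5.54 for Galc 1452907_at, -2.06 to -1.78 for Galc 1420547_at, 1.51 to 1.83 for Tnfaip2 and 0.91 to 1.27 for Dus4l 1441006_at. Dus4l 1453252_at ranged from -0.10 to 0.07 and so had no stable sign. With 1 array left out, 0 of the 5 probe sets were called in AβPP antisense against Random antisense, and the same held under the other alternatives for the probe sets that were tested. Galc 1420547_at and Dus4l 1453252_at did not pass the filter of 6 log2 and have no value there.

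Counts moved more. All probe sets called in SAMP8 against Control ranged from 54 to 115 with 1 array left out, and were 37 with only the 8 arrays compared, 8 higher and 29 lower. In AβPP antisense against Random antisense they ranged from 11 to 896 (896 without AβPP antisense 3). They were 0 with only the 8 arrays compared, 199 without Control 4 and AβPP antisense 4, and 13 with Random antisense 1 as untreated SAMP8, with a filter of 6 log2, and with each array centred on its median. Centring moved the median line difference from 0.04 to 0.11. Neighbours called ranged from 0 to 2 with 1 array left out. They were 2 without Control 4 and AβPP antisense 4 (Klc1 and Eml5), and 0 with the 8 arrays alone, an intensity trend with robust prior, 5 genes on either side, or the replicate block. List probe sets called ranged from 0 to 1 (Adat2, without Control 3) in SAMP8 against Control and from 0 to 9 in AβPP antisense against Random antisense (9 without AβPP antisense 3). Without Control 4 and AβPP antisense 4 they were 2 (Adat2 and Exoc3) and 2 (Vcam1 and Mbp). The causes were not tested.

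Same-numbered arrays correlated at -0.27 to 0.24 in their deviations from group means, with 9 of 24 pairs over 0.1 and 5 of 16 arrays closest to their own number. With the replicate block, 36 probe sets were called higher and 35 lower in SAMP8 against Control, and 3 and 14 in AβPP antisense against Random antisense, where 43 and 43, and 3 and 17, were called without it. The neighbour call of Klc1 was lost under the block.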

Other observations

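The 2 tested Galc probe sets ranked the Control mice alike although they differ from SAMP8 in opposite directions. On 1452907_at the Control arrays stood in the order Control 4 (2.28), Control 1 (2.33), Control 3 (4.46) and Control 2 (6.59), and on 1420547_at in the order Control 4 (4.83), Control 1 (5.07), Control 3 (5.28) and Control 2 (5.67). Control 2 was also the highest Control array for Timm9 on 1428010_at, at 3.93 against 2.78 to 2.82. Control 2 read lower on Galc 1452907_at than every SAMP8 array, and higher on 1420547_at than every other array. These orders rest on 4 mice, were noticed after the values were seen and were not tested.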
